A study of Mus musculus with 4 samples.

Results

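The genes described here are Trp53, which encodes the transcription factor p53, the genes of its inhibitors Mdm2 and Mdm4, and 7 genes that p53 is known to switch on: Ccng1, Phlda3, Aen, Trp53inp1, Zmat3, Sesn1 and Eda2r. They are 10 of the 50600 genes in the count tables and were found by matching the symbols to the gene identifiers. RNA of primary T cells from mice of the inbred strain C57BL/6NJ was sequenced in 4 libraries of a single group, numbered 1 to 4 by the biological replicate in their labels. Sex is recorded as not collected, age and stage as unknown, and no treatment or allele is given. The alignments that were counted are named Th0, activated and 24 h, and the labels link a differentiation protocol for CD4+ cells and a poly(A)+ library protocol although the assay is titled total RNA-seq. The labels give the 4 libraries a biosample each but the same donor entry. Xist, which coats the inactive X chromosome of female cells, had 163, 150, 0.715 and 0.696 TPM in replicates 1 to 4, and the Y-linked gene Ddx3y had 0.0434, 0.0219, 38.8 and 39.3 TPM (TPM, counts divided by exon length and scaled to the same fixed total in each library). Replicates 1 and 2 thus had the pattern of female cells in these genes and replicates 3 and 4 that of male cells. This goes against 1 animal as the source of all 4. With no second group, the levels of these genes, their order and their spread over the 4 libraries were described.

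p53 is a tetrameric transcription factor that is made continuously and held low by MDM2, a ubiquitin ligase that binds its N-terminal activation domain and sends it to the proteasome. MDM4 resembles MDM2, binds the same domain and blocks activation, and works together with MDM2 as a heterodimer. Since p53 in turn activates Mdm2, the pair forms a negative feedback loop, and DNA damage or loss of ribosome biogenesis releases p53 from it. In T cells, which divide fast after activation, p53 is known as a brake on proliferation and as a trigger of death after damage. Most control of p53 acts on the protein, which RNA counts do not show.

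The promoters of these genes are shown because p53 acts through a DNA element made of 2 copies of a 10-base unit, which p53 is known to bind in several of its targets. Windows of 300 bases, from 250 bases before to 50 bases after a RefSeq gene start (build GRCm38.p6, the same assembly as mm10), were found for 8 of the 10 genes, in 11 windows. Capitals mark the 10-base units that were counted as matches to the p53 consensus, with or without mismatches. In Trp53 and Aen they mark a pair of units with 3 mismatches, all of them in the second unit. In Mdm2 and Ccng1 they mark a single unit without mismatch.
Trp53 (chr11:69580109-69580408, plus strand): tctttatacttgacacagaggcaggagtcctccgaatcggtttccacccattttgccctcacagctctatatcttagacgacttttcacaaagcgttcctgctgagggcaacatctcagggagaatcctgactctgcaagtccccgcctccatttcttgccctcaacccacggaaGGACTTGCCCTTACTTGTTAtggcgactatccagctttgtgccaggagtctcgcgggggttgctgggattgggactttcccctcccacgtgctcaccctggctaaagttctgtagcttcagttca
Mdm2 (chr10:117710709-117711008, minus strand): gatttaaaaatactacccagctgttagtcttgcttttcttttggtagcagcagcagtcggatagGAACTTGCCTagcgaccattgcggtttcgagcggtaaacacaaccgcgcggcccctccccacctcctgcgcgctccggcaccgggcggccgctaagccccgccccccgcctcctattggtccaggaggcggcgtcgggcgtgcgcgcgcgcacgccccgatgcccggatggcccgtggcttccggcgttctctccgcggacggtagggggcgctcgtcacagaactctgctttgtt
Ccng1 (chr11:40755237-40755536, minus strand): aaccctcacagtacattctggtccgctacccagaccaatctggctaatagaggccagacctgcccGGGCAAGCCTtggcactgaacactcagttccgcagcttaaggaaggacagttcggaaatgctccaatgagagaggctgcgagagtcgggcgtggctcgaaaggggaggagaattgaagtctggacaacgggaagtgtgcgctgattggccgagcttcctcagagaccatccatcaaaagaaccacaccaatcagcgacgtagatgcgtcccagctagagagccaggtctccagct
Aen (chr7:78895677-78895976, plus strand): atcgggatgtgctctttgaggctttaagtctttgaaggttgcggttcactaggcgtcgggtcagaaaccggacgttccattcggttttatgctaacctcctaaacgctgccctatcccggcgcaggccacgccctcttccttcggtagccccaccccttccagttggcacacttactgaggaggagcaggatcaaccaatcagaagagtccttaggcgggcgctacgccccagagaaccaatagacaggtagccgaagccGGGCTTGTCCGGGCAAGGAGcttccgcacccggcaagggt

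A pair of units, each with its central C and G and the A or T bases between them intact, no more than 13 bases apart and with at most 3 mismatches in all, was found in windows of 4 of the 8 genes. Among 27025 genes with a window in the RefSeq table, 7.63% held such a pair. In Trp53 the pair, with no base between the units, lay at chr11:69580284-69580303, before the gene start, and in Aen at chr7:78895937-78895956, inside both of the 2 overlapping windows of that gene. The other pairs were in the window of the inner start of Sesn1 and in 1 of the windows of Mdm4, on the strand of the gene, and are shown because they differ in the spacing of the units.
Sesn1 (chr10:41887253-41887275): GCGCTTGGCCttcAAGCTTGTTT
Mdm4 (chr1:133025626-133025650): AAGCAAGGTAtgctgTGGCAAGCCT
Both carry lower-case bases between their units, 3 in Sesn1 and 5 in Mdm4. A single unit without mismatch was held by 5 of the 8 genes and by 9.55% of the same 27025 genes. The consensus reads the same on both strands, so both were covered. In Ccng1 the 10 bases just before its marked unit, agacctgccc, differ from the consensus only at 1 of the central A or T bases. That pair was not counted, because the search required these bases to be intact in both units. A match of letters shows neither binding nor use of the site, and sites outside these windows, such as the known p53 elements in the first intron of Mdm2, were not searched.

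Trp53 itself was abundant and close to constant. It had 245, 261, 274 and 275 TPM in replicates 1 to 4. The mean was 264 ± 13.8 TPM (SD, n = 4), from 132349 fragments in all, and replicate 1 was the lowest. By mean TPM it was gene number 679 of the 50600. The gene (ENSMUSG00000059552.13) lies on mm10 chromosome 11 from 69580359 to 69591873 on the plus strand, with 7 merged exon blocks and 4045 bases of exon. No annotated gene overlaps it. Its start is 104 bases from that of Wrap53, a gene on the opposite strand that encodes a Cajal body protein, which had 60.2 ± 2.97 TPM (SD, n = 4) and was picked out after the values were seen. Trp53 thus had the higher level of the 2 divergent genes in all 4 libraries, with 245 TPM or more beside 63.2 TPM or less. The other genes of the p53 family were at or near 0. No fragment of Trp63, which encodes the p63 protein of epithelia, was counted in any library. Trp73, which encodes p73, had 10, 0, 0 and 1 fragments in replicates 1 to 4.

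In TPM, Mdm2 was above Mdm4 in every library, and their ratio hardly moved. Mdm2 (ENSMUSG00000020184.15, chromosome 10, 117688875 to 117710758, minus strand) had 107, 101, 101 and 96.9 TPM in replicates 1 to 4, a mean of 101 ± 4.05 TPM. Mdm4 (ENSMUSG00000054387.13, chromosome 1, 132959484 to 133030561, minus strand) had 45.0, 44.1, 44.5 and 42.3 TPM, a mean of 44.0 ± 1.16 TPM. In fragments the order was the reverse. Mdm4 had 11813, 51632, 9302 and 8787 in replicates 1 to 4, and Mdm2 had 9630, 40744, 7254 and 6911. The higher TPM of Mdm2 thus rests on the division by exon length, 5083 bases for Mdm2 and 14798 for Mdm4. Which of these exon bases were in use was not tested. Both inhibitors were highest in replicate 1 and lowest in replicate 4, while Trp53 was lowest in replicate 1 and highest in replicate 4. The ratio of Mdm2 to Mdm4 in TPM was 2.31 ± 0.0452 (SD, n = 4), between 2.27 and 2.37. On the log2(TPM + 1) scale Mdm2 exceeded Mdm4 by 1.19 ± 0.028 (SD, n = 4), the smallest SD among the 14 gene pairs compared. Trp53 exceeded Mdm2 by 1.37 ± 0.13, with a ratio in TPM between 2.30 in replicate 1 and 2.83 in replicate 4. It exceeded Mdm4 by 2.56 ± 0.10 on the same scale. The counts sum all transcripts of a gene, so the transcripts of Mdm2 that start at its p53-responsive inner promoter, and the long and short splice forms of Mdm4, were not told apart. A gene on the opposite strand inside Mdm4, Gm29257, had 25 to 139 fragments per library and shared no exon base with it.

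**Figure D1:**
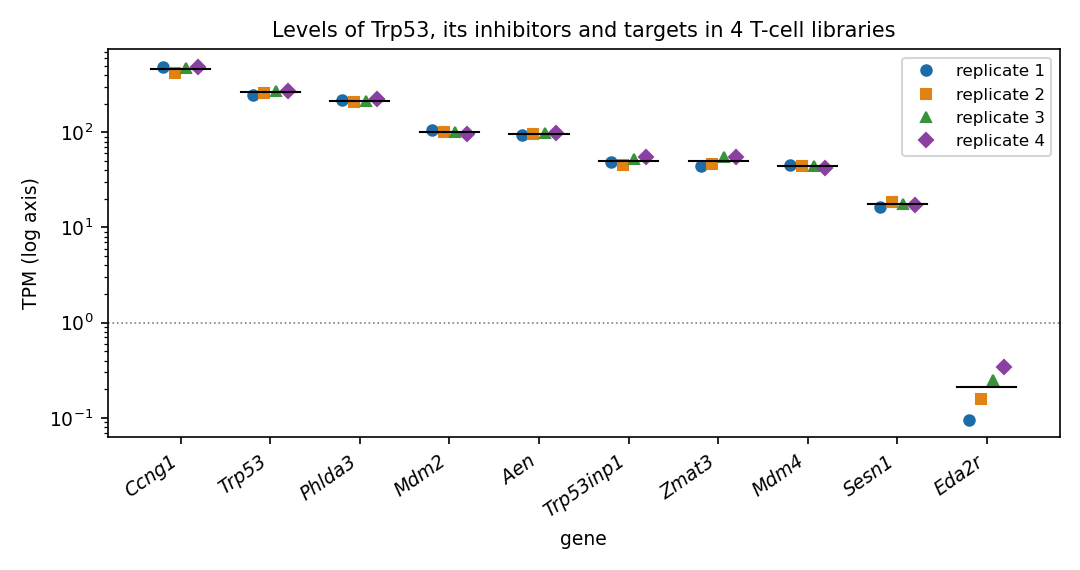
TPM (log axis) of the 10 genes in each of the 4 T-cell libraries, ordered by mean; each symbol is a library, the short line is the mean and the dotted line is 1 TPM. Ccng1 stands highest at a mean of 465 TPM, 9 genes are above 10 TPM in every library, and Eda2r is below 1 TPM in all 4.

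Among the targets, Ccng1 and Phlda3 were the most abundant. Ccng1 encodes cyclin G1, an atypical cyclin that brings the phosphatase PP2A to MDM2, and so sits in the same feedback loop. Ccng1 (ENSMUSG00000020326.7, chromosome 11, 40748552 to 40755311, minus strand) had 482, 418, 472 and 487 TPM in replicates 1 to 4, a mean of 465 ± 31.6 TPM (SD, n = 4), and was number 313 of all genes. Replicate 2 was the low library. Ccng1 exceeded its closest relative, the non-canonical cyclin gene Ccng2, by 5.78 ± 0.11 on the log2(TPM + 1) scale, and Ccng2 had a mean of 7.49 TPM. Phlda3, which encodes a small pleckstrin-homology protein known in human cells to keep the kinase AKT off the membrane, lies on chromosome 1 from 135766119 to 135769136 on the plus strand (ENSMUSG00000041801.5). It had 218, 208, 211 and 224 TPM, a mean of 215 ± 7.14 TPM. It exceeded Phlda1, the related gene of a cytoplasmic protein with the same domain, by 2.84 ± 0.078 on the log2(TPM + 1) scale.

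Aen was close to Mdm2 in TPM, and Trp53inp1 and Zmat3 were lower and close to each other. In fragments summed over the libraries, Zmat3 (68306) was instead close to Aen (69311) and Mdm2 (64539), and Trp53inp1 had 38522. The lower TPM of Zmat3 thus rests on the division by its 11435 bases of exon, against 5801 in Aen and 5083 in Mdm2. Aen encodes a nuclease that p53 uses to degrade DNA in dying cells. Aen (ENSMUSG00000030609.18, chromosome 7, 78895854 to 78911209, plus strand) had 93.7, 95.1, 98.5 and 97.4 TPM in replicates 1 to 4, a mean of 96.2 ± 2.19 TPM, and had the smallest coefficient of variation of the 10 genes, 2.27%. Isg20, a related exonuclease gene that starts at 78913424 on the same chromosome, had 21.4 ± 2.41 TPM, 2.12 ± 0.16 below Aen on the log2(TPM + 1) scale. Trp53inp1, which encodes a stress-induced nuclear protein that also takes part in autophagy, lies on chromosome 4 from 11156431 to 11174379 on the plus strand (ENSMUSG00000028211.11). It had 48.5, 45.1, 53.02 and 55.0 TPM, a mean of 50.4 ± 4.46 TPM. Its relative Trp53inp2 had a mean of 2.75 TPM and was below it in all 4 libraries. Zmat3 encodes a zinc-finger protein that binds RNA. Zmat3 (ENSMUSG00000027663.12, chromosome 3, 32334792 to 32366014, minus strand) had 43.9, 46.0, 55.7 and 55.0 TPM, a mean of 50.1 ± 6.06 TPM, with replicates 3 and 4 above replicates 1 and 2 and no value between.

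Sesn1 was low and Eda2r was nearly silent. Sestrins are stress proteins that restrain the growth kinase mTORC1. Sesn1 (ENSMUSG00000038332.13, chromosome 10, 41809935 to 41908424, plus strand) had 16.6, 18.7, 17.7 and 17.1 TPM in replicates 1 to 4, a mean of 17.5 ± 0.916 TPM. It was the lowest of the 3 sestrin genes in every library. On the log2(TPM + 1) scale Sesn1 minus Sesn2 was -2.42 ± 0.24 and Sesn1 minus Sesn3 was -0.48 ± 0.16 (SD, n = 4), and the mean levels of Sesn2 and Sesn3 were 99.1 and 24.8 TPM. Sesn2 is a target of p53 and also of the stress factor ATF4. The start of the Sesn1 gene model is 64 bases from that of Cep57l1 on the opposite strand, which had 11.2 ± 0.747 TPM and was picked out after the values were seen. An annotated gene inside Sesn1 on the same strand, 9930024M15Rik, shared no exon base with it and had 2 to 19 fragments per library. Eda2r encodes the receptor of the ectodysplasin A2 ligand. The gene (ENSMUSG00000034457.10, chromosome X, 97333840 to 97377216, minus strand) had 10, 74, 21 and 28 fragments, or 0.0957, 0.159, 0.252 and 0.339 TPM, all below 1 TPM. The exact 95% Poisson interval, which covers counting error only, ran from 0.0459 to 0.176 TPM in replicate 1 and from 0.225 to 0.490 TPM in replicate 4, so that these 2 libraries differed by more than counting error. The related receptor gene Edar had no fragment in any library.

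Ordered by mean TPM, the genes ran Ccng1, Trp53, Phlda3, Mdm2, Aen, Trp53inp1, Zmat3, Mdm4, Sesn1 and Eda2r. Of the 9 pairs of neighbours in this order, 6 had the same order in all 4 libraries with ranges that did not overlap. The ranges of Mdm2 and Aen overlapped, with Mdm2 higher in 3 of 4 libraries and a mean difference of 0.076 ± 0.084 on the log2(TPM + 1) scale (exact sign-flip permutation p = 0.25). Trp53inp1 was above Zmat3 in 2 of 4 libraries, at a difference of 0.011 ± 0.091 (exact sign-flip permutation p = 0.875). Zmat3 was above Mdm4 in 3 of 4 libraries, by 0.178 ± 0.196 (exact sign-flip permutation p = 0.25). With 4 libraries the smallest value that the exact two-sided permutation test can give is p = 0.13, and none of the pairs could reach 0.05. All 14 of the pairs compared had that smallest value, unchanged by Benjamini-Hochberg adjustment over the 14. The 6 neighbour pairs with the same order in all 4 libraries had it too (exact permutation p = 0.188 after adjustment over the 9). Neighbours were set by mean TPM in these same libraries, so their p-values are no support for the order.

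**Figure D2:**
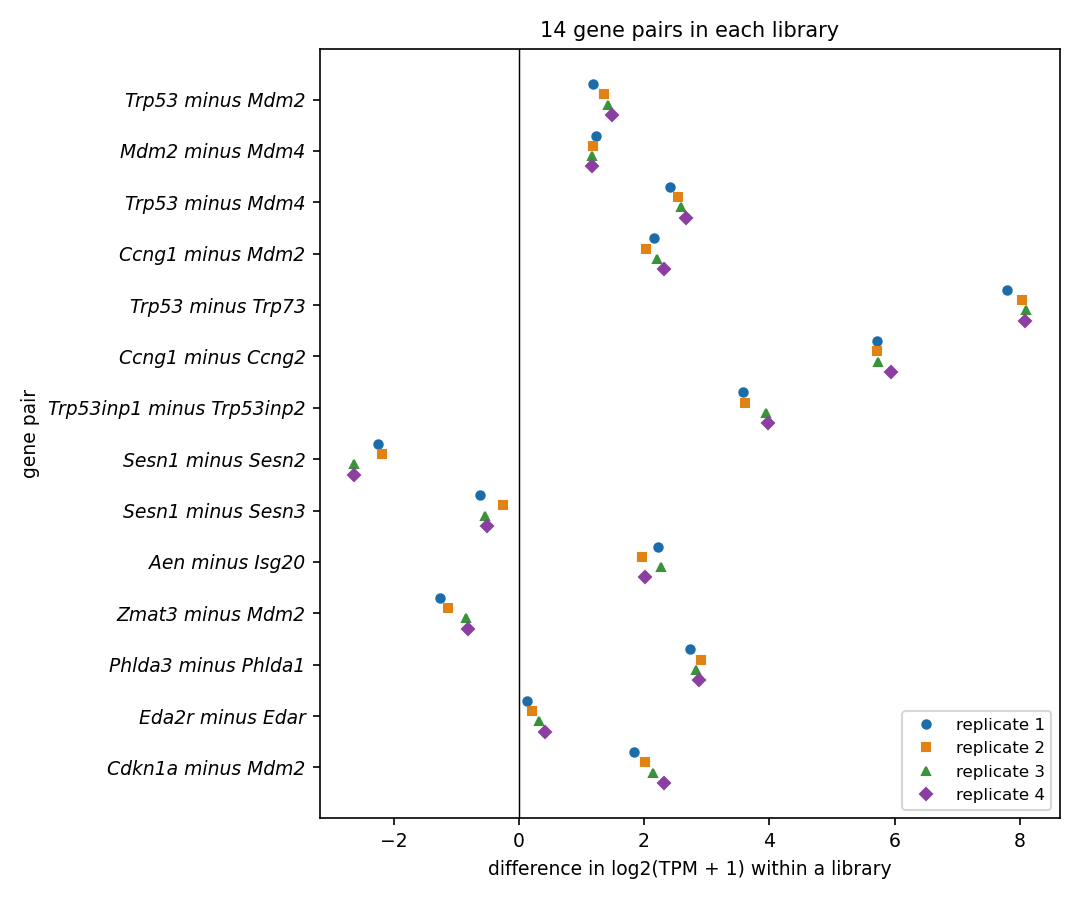
Difference in log2(TPM + 1) between the genes of each of 14 pairs within a library; each symbol is a library and the vertical line marks no difference. All pairs keep their order in the 4 libraries, and the 4 values of Mdm2 minus Mdm4 lie between 1.17 and 1.23.

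The spread between libraries was tested for all genes together, by the fit of a model with a single level to each gene (edgeR, trended dispersion). Of 12712 genes past the filter on low counts, 47 varied beyond other genes of their level (Benjamini-Hochberg adjusted p under 0.05), or 0.37%. Of the 10 genes described, 9 passed the filter and 0 varied by this edgeR test, while at an unadjusted p under 0.05 there was 1, Zmat3, beside 5.12% of all genes tested. Eda2r did not pass the filter. Zmat3 had a residual deviance of 12.9, number 157 of all genes tested (edgeR unadjusted p = 0.00480, adjusted p = 0.389). Without the filter, Zmat3 was past the threshold (edgeR adjusted p = 0.0443). Trp53inp1 came next with 7.37 (edgeR unadjusted p = 0.0609, adjusted p = 1.00). For the 9 genes the median residual deviance was 1.47, against 1.94 over all genes tested, and the median coefficient of variation was 5.23%, against 7.53%. Counting error alone gives a coefficient of variation between 0.562% for Ccng1 and 2.77% for Sesn1. For each of the 9 genes the spread over libraries was larger than that.

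Several of the genes had their low or high values in the same libraries, as some of 9 genes must with 4 libraries. Trp53, Aen, Zmat3 and Sesn1 were lowest in replicate 1, and Ccng1, Phlda3 and Trp53inp1 were lowest in replicate 2. Of the 9 genes past the filter, 4 were lowest in replicate 1, beside 34.0% of all genes tested, and 3 in replicate 2, beside 15.4%. In replicate 4, 4 of the 9 were highest, beside 20.02%. In Trp53, Aen, Trp53inp1, Zmat3 and Eda2r both values of replicates 3 and 4 were above both of replicates 1 and 2. Of the 9 genes past the filter, 4 had this order, beside 16.5% of the 12712 genes tested (2103 genes). The order was picked out after the values were seen and was not tested, and 9 genes are too few to call it particular to them. The median deviation of the 9 genes from their own means was -0.037, -0.016, 0.024 and 0.059 on the log2 scale in replicates 1 to 4, against -0.008, 0.014, 0.003 and -0.011 over all genes tested. Some other measures were arranged alike over the libraries. The summed level of the 7 T-cell marker genes was 4002, 4013, 4342 and 4303 TPM in replicates 1 to 4. Of these genes Trac, Cd5, Cd4 and Cd3e had replicates 3 and 4 above replicates 1 and 2. Cd3g had the reverse order, with 103, 103, 95.3 and 94.7 TPM, and Cd3d and Cd28 had neither order. Xist and Ddx3y, given above, separated the same libraries. Sex therefore cannot be told apart from any other difference between replicates 1 and 2 and replicates 3 and 4. The part of these measures in the levels of the p53 genes was not tested.

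**Figure D3:**
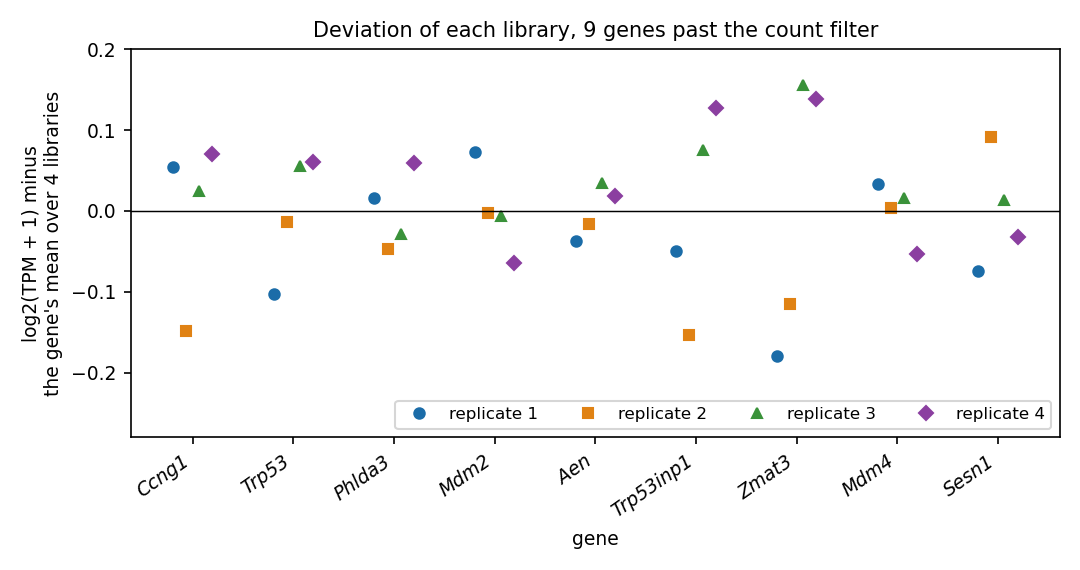
Deviation of each library from the gene's own mean on the log2(TPM + 1) scale for the 9 genes past the count filter; each symbol is a library and the line at 0 is the mean. Zmat3 has replicates 1 and 2 at -0.179 and -0.115 and replicates 3 and 4 at 0.156 and 0.138, while Mdm2 and Mdm4 have replicate 1 highest.

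Other genes of the pathway were taken from 6 lists of 48 genes in all, and most were transcribed. Over the whole count tables, 8109 of 50600 genes reached 10 TPM in every library. All 5 kinases that report DNA damage to p53 reached 10 TPM throughout, led by the checkpoint kinase gene Chek1 at 47.5 ± 2.25 TPM (SD, n = 4). Atm, whose kinase senses double-strand breaks, had 32.5 ± 0.864, Chek2 19.3 ± 1.85 and Prkdc 18.1 ± 0.742. Of 14 other regulators, 12 reached 10 TPM throughout. Rpl11 (427 ± 26.4 TPM) and Rpl5 (299 ± 15.4) encode ribosomal proteins that can bind MDM2, Usp7 (142 ± 2.56) encodes a protease that removes ubiquitin from p53 and MDM2, and Huwe1 (118 ± 6.63) encodes another ubiquitin ligase of p53. Cdkn2a, the gene of the MDM2 inhibitor ARF and of p16, had 6, 0, 0 and 5 fragments in replicates 1 to 4. None of the 18 genes of these 2 lists that were tested varied between libraries by the edgeR test, beside 0.37% of all genes tested. At an unadjusted p under 0.05 there was 1 of them, the ubiquitin ligase gene Cop1, beside 5.12% of all genes tested.

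Most other targets of p53 were transcribed too. The arrest list had a median of 92.7 TPM, and 6 of its 7 genes reached 10 TPM in each of the libraries. Cdkn1a, which encodes the kinase inhibitor p21, had 383, 411, 452 and 490 TPM, a mean of 434 ± 46.7. It exceeded Mdm2 by 2.08 ± 0.21 on the log2(TPM + 1) scale, 4.29 times as high on average in TPM. Gtse1, which encodes a microtubule protein of G2 that also binds p53, had 246 ± 22.1 TPM, Plk3 129 ± 8.42 and Btg2, an antiproliferative gene, 92.7 ± 5.19. Gadd45a had 3.03 to 6.68 TPM. The death list had a median of 70.2 TPM, and its 10 genes all reached 10 TPM in each of the libraries. Bax, which opens the mitochondrial outer membrane, had 431 ± 30.1 TPM, Siva1 273 ± 16.4, Ei24 105 ± 4.63 and Pidd1 82.5 ± 6.66. The repair and metabolism list had a median of 31.5 TPM, and 8 of its 10 genes reached 10 TPM throughout. Triap1, an inhibitor of the apoptosome, had 99.0 ± 2.52 TPM, Tigar, a regulator of sugar metabolism, 40.2 ± 1.81 and the polymerase gene Polk 35.3 ± 1.69. Gdf15, a secreted stress factor, was below 1 TPM in all 4 libraries. The median over all genes tested was 23.0 TPM.

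**Figure D4:**
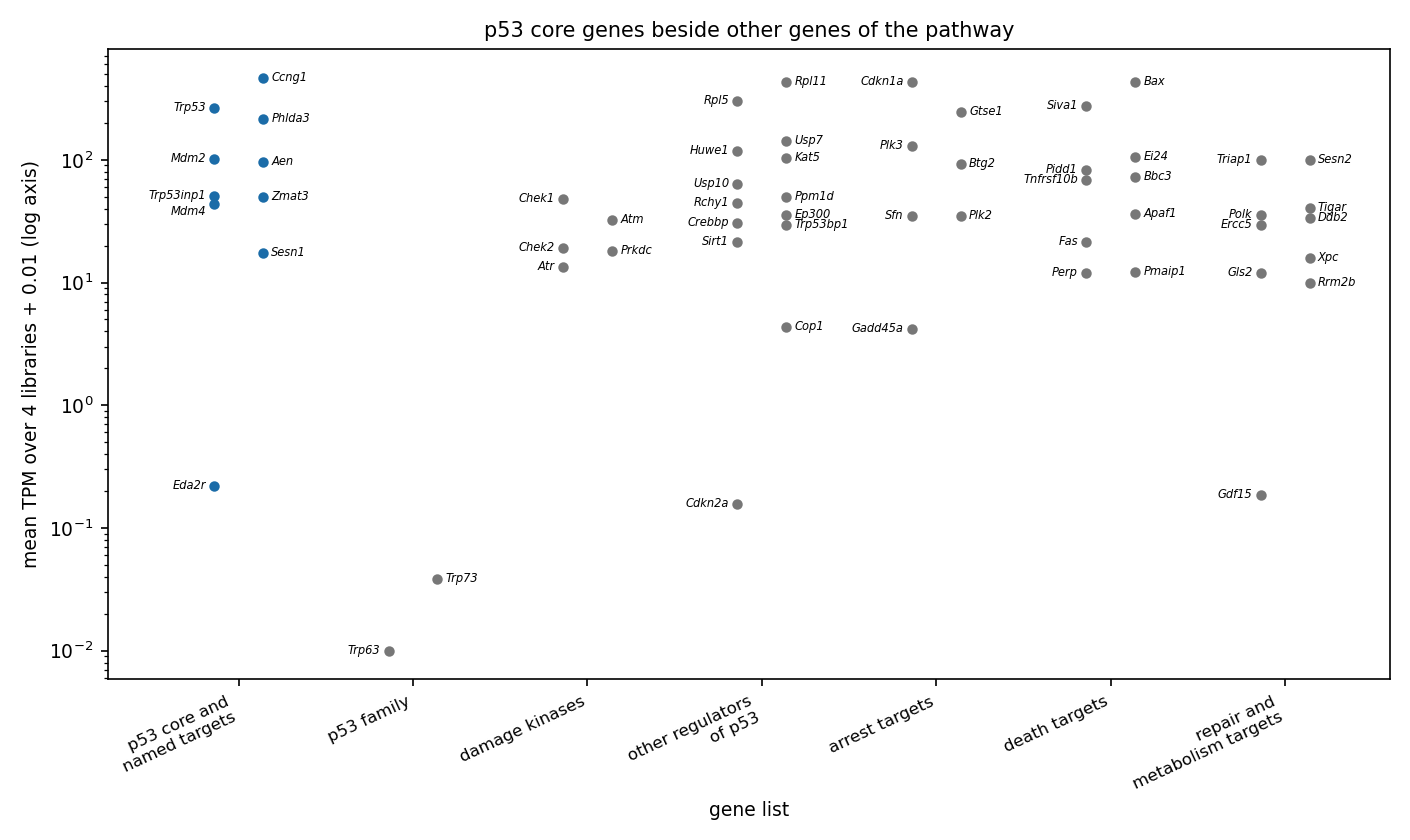
Mean TPM over the 4 libraries (log axis, 0.01 added so that genes at 0 can be drawn) of the 10 genes described, in blue, and of 48 other genes of the p53 pathway in 6 lists, in grey; each point is a gene. Trp63, Trp73, Cdkn2a and Gdf15 lie below 1 TPM, as Eda2r does, and all kinases of the damage response lie above 10 TPM.

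Of the 26 genes in the 3 target lists that were tested, 1 varied between libraries, beside 0.37% of all genes tested. The gene was Sesn2, with 82.0, 88.3, 115 and 111 TPM in replicates 1 to 4 (edgeR adjusted p = 0.0138). Replicates 3 and 4 were the high libraries, as for Zmat3 and Trp53inp1. The call was lost without replicate 2 (edgeR adjusted p = 0.386), without replicate 3 (0.0561) and without replicate 1 (0.0914), and with a common dispersion (0.323). At an unadjusted p under 0.05 there were 4 of the 26, beside 5.12% of all genes tested. The other 3 were Cdkn1a, Sfn and Bbc3, and none of these reached an adjusted p under 0.05 (edgeR adjusted p = 0.863, 0.910 and 0.445). Bbc3, which encodes the death protein PUMA, was past the threshold without replicate 1.

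The genes whose levels were most like those of Trp53 over the 4 libraries were Snrnp200, Nab2 and Mdh1. Likeness was taken as the largest difference in log2(TPM + 1) in any library, which was 0.034 for Snrnp200, 0.054 for Nab2 and 0.058 for Mdh1, and 21 genes were within 0.1 of Trp53. For Mdm2 the nearest were Cops3 (0.028), Cbx1 (0.034) and Tyms (0.036), among 64 genes within 0.1. With only 4 libraries and narrow ranges, these values describe levels that lay close together.

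The libraries held between 47558517 and 273136467 gene-assigned fragments, with replicate 2 the deepest. All 7 T-cell marker genes reached 10 TPM throughout. Markers of stroma, red cells, natural killer cells, macrophages and B cells were mostly below 1 TPM, with Csf1r, Klrb1c, Hbb-bs and Hba-a1 at 0 in all 4 libraries, and the sum of the 4 B-cell genes, 3.24, 5.10, 4.64 and 2.08 TPM in replicates 1 to 4, was the highest of the 5 lists. Cd8a was below 1 TPM, while Cd8b1 was at 41.8 to 50.3 TPM. In bulk RNA, fewer cells of a type and less RNA per cell cannot be told apart.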

How the data were processed

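The authors deposited raw fragment counts per gene. These were made with featureCounts 1.4.6-p4 on GENCODE vM13 exons, per the file headers, with strand setting 2, only where both ends aligned, and without the options for fragments that align to several places or overlap several genes; aligner settings are not given in the sources used here. Genes with near-identical copies are therefore uncertain. The build is mm10 per the labels.

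TPM was computed here from counts and exon lengths. Symbols came from GENCODE vM21 (50376 of 50600 identifiers matched). Variation between libraries was tested with edgeR 4.0.16 (R 4.3.3): filterByExpr (minimum count 10), TMM factors, trended dispersion, an intercept-only fit, and each gene's residual deviance read from a chi-square curve (3 degrees of freedom), Benjamini-Hochberg adjusted over all genes. DESeq2 1.42.0 gave size factors for an alternative. The step was tested on simulated data. Gene pairs were compared by an exact sign-flip permutation test within libraries. Promoter windows are RefSeq's. Other steps used scipy 1.17.1, numpy 2.4.6, matplotlib 3.10.9 and pandas 2.3.3 in Python 3.11.15.

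The labels name no separate animals (1 donor entry for all), so p-values speak only of the differences among these 4 samples, part of which may be technical. Each of the 6 pairs of libraries differed by more than sampling noise (chi-square divided by its degrees of freedom, 9.67 to 31.0). Intervals cover counting error only, and 3 fragments, taken as the detection floor, correspond to 0.0379 to 0.214 TPM at 1 kb of exon. The members, lists and tests were chosen with earlier results of these data known. Named are all 10 genes, the genes of 14 pairs, the 4 of highest mean TPM in each list and any past the threshold, genes overlapping a member, and the 3 nearest in level to Trp53 and Mdm2; Sfn, Cop1, Bbc3, Gadd45a, Cdkn2a, Gdf15, Xist, Ddx3y, Wrap53 and Cep57l1 were added after their values were seen. Text files that list other files were not used here.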

Additional observations from a re-analysis of the deposited data

Results flagged for a closer look

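In 3 of 72 sets of 4 values, 1 library lay far from the rest by Dixon's test, which chance brings about in roughly 1 in 20. The depth of replicate 2 was such a value, at 273136467 gene-assigned fragments against 47558517 to 60102919 in the other libraries. Trp73 stood apart in replicate 1, at 0.102 TPM from 10 fragments, beside at most 0.0129 TPM elsewhere. The log2(TPM + 1) difference of Ccng1 minus Ccng2 was 5.94 in replicate 4, against 5.71 to 5.73 in the others.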

How the results depend on the processing

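No paired comparison of groups was possible because there is only 1 group. The 14 gene pairs kept their direction under every alternative run, with a pseudocount of 0.1, with another scaling and without each replicate in turn. Of the 10 genes, 9 were at 1 TPM or more and at 10 TPM or more in every library in each setting, except that 8 were at 10 or more with TMM-adjusted counts scaled by exon length and depth. That scale is smaller by construction, and the mean level of every member moved on it, Trp53 to 77.1 and Mdm2 to 29.7. The 47 variable genes became 148 without the filter on low counts, 861 with a common dispersion, and between 25 (replicate 2 omitted) and 40 when single replicates were omitted. Of the 47, 31 were shared without the filter and 36 with a common dispersion. The count of variable members, 0, became 1 (Zmat3) without the filter and remained 0 with each replicate left out. The count of variable pathway genes, 1 (Sesn2), lay between 0 (replicate 2 or 3 omitted) and 1 when single replicates were omitted; without replicate 1 that 1 gene was Bbc3, and with a common dispersion it was Gadd45a. The cause of these shifts was not tested. Counting error is wide for Eda2r, Trp73, Cdkn2a and Gdf15, but depth does not order them: Trp73, Cdkn2a and Gdf15 had 10, 6 and 13 fragments in replicate 1 and 0 in replicate 2, the deepest library. The exact 95% Poisson intervals of these 2 libraries did not overlap (Gdf15, 0.211 to 0.677 TPM in replicate 1 and at most 0.0252 TPM in replicate 2).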
